A study of Mus musculus with 3 samples.

Results

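Gene-poor stretches of the 19 mouse autosomes were described by the RNA measured over them in the dentate gyrus, a part of the hippocampus whose principal cells are granule neurons. The autosomes were divided into fixed bins of 2 Mb by the start of each locus in the deposited table, and a bin was gene-poor if it held 1 to 8 table rows, each row being 1 gene entry, once rows of large clustered or housekeeping families had been set aside by symbol. This gave 412 gene-poor bins of 1181 occupied bins (34.9%), and 1805 gene-poor rows of 19518 kept autosomal rows (9.25%) and of 24458 rows in all. The rule used position and symbol alone and no expression value.

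The study asked how activating neurons alters open chromatin and RNA in this tissue. All 3 libraries carry the label E24, which the labels do not expand, and came from individual adult C57BL/6 mice aged 8 weeks. No genotype other than the strain and no treatment is named in the sample labels. The deposited table as a whole carries the terms WT and ECT in its name, which the labels neither expand nor tie to a library. With 1 group, conditions were not compared, and every contrast below is made inside each library, between places in the genome. Summed RPKM (reads scaled to locus length and to the mapped reads of the library) were 384523, 369261 and 350942 in replicates 1, 2 and 3. Read depth is unknown.

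Gene-poor regions, also called gene deserts, are long intervals with few transcribed loci. They are known for holding unusually long genes, among them many for cell adhesion, axon guidance and synaptic signalling in neurons, and for the distant enhancers of developmental transcription factors. Genes needed by every cell more often sit in gene-dense regions.

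Values in this table are displaced along it between libraries, which bears on every level given here. Of gene-poor rows at 20 RPKM or more in 1 library, 16.3% to 45.6% were matched at the same row of another library, to within 0.1 on the natural log scale, against a background of 1.65% to 1.73% per row at distances of 26 to 100 rows. The share was 16.3% to 18.2% in every pair with replicate 1, and 45.4% and 45.6% between replicates 2 and 3. Rows 1 to 10 positions away added 21.7% to 47.8% above that background. Of the matches found, 35.2% to 49.2% were therefore in register, against 32.8% to 47.7% for the other autosomal rows. The stretch of table over which values moved was long in gene-poor regions, where 11 neighbouring rows spanned a median of 7.11 Mb, against 2.44 Mb elsewhere. Of the rows within 5 table positions of a gene-poor row, 46.6% lay in gene-poor bins themselves, so values of fuller bins could enter gene-poor rows and the reverse. How much this moved the levels was not tested. Position, locus length and membership of gene lists were read from the symbol and locus columns alone and use no level. Of the 1797 gene-poor rows matched to RefSeq, 99.7% lay on the chromosome that RefSeq gives, a match that a shift by a few rows would rarely change. Levels are given for classes and runs rather than for single genes. The tissue label could not be checked from single rows. The row named for Prox1, a transcription factor of granule neurons, held 1.58, 39.3 and 0 RPKM, and that for the calcium buffer Calb1 held 7.18, 91.3 and 89.8 RPKM.

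The longest gene-poor locus was Ptprd, a receptor tyrosine phosphatase of synapses, with 2271 kb on chromosome 4, followed by the contactin-associated Cntnap2 with 2241 kb on chromosome 6, the lipoprotein receptor relative Lrp1b with 2057 kb on chromosome 2 and the ADP-ribose hydrolase Macrod2 with 1995 kb on chromosome 2. Cntnap2 and Lrp1b were each the single kept row of their bin. As examples of sequence before annotated starts, the 250 bases before the most upstream listed start are shown for 4 loci, with CG dinucleotides in capitals. These are the first 4 of the longest gene-poor loci that have an entry in the RefSeq promoter table (build GRCm38.p6). Whether transcription begins at these listed starts in this tissue was not tested. The other 2 belong to Fhit, a nucleotide hydrolase, and Nrxn3, a presynaptic adhesion protein.
Cntnap2: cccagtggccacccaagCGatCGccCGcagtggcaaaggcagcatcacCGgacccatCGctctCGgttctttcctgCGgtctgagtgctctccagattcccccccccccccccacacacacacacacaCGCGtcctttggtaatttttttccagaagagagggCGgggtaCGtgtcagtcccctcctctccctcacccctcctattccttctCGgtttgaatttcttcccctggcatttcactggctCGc
Macrod2: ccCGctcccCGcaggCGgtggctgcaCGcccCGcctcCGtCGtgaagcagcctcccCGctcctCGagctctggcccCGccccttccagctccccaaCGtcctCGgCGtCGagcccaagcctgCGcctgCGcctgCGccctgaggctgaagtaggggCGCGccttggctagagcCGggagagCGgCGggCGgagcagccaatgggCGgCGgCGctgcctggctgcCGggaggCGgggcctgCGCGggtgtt
Fhit: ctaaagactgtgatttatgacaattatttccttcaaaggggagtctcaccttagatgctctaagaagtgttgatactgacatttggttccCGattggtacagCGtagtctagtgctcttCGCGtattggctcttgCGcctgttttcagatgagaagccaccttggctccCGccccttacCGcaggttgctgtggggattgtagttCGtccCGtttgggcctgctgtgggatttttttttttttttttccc
Nrxn3: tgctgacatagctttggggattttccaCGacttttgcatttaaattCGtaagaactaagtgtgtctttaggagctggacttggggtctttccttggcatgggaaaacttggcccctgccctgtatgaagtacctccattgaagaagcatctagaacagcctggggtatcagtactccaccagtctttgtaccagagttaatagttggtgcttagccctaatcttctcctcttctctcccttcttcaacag
The Cntnap2 sequence was chr6:45059811-45060060 on the plus strand, with 13 CG pairs and a GC content of 59.6%. The Macrod2 sequence was chr2:140395180-140395429 on the plus strand, with 30 CG pairs and a GC content of 76.4%. The Fhit sequence was chr14:11162036-11162285 on the minus strand, with 9 CG pairs and a GC content of 46.8%. The Nrxn3 sequence was chr12:88794254-88794503 on the plus strand, with 2 CG pairs and a GC content of 45.6%. These 4 sequences ranged widely in CG pairs, from 2 before Nrxn3 to 30 before Macrod2. Only 74.2% of gene-poor rows matched a promoter entry, below the 80% needed for a check over the class, so promoter composition over the class is not compared here.

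Gene-poor loci were long. The median locus was 43.6 kb in gene-poor bins and 16.7 kb in the other autosomal bins, with quartiles of 13.3 and 129 kb against 6.51 and 41.0 kb. Loci over 100 kb made up 30.4% of gene-poor rows and 9.08% of the others. Of 184 kept loci over 500 kb, 100 (54.3%) started in gene-poor bins, as did 28 of 44 loci over 1 Mb. Loci covered a median of 24.4% of a gene-poor bin and 45.9% of a fuller bin, counting each base once. Protein-coding genes made up 81.1% of matched gene-poor rows and 90.1% of the others, and long non-coding RNA genes 16.9% and 8.16%. Locus lengths are annotation and carry no error between libraries.

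Gene-poor bins were found on every autosome, and 250 of the 412 adjoined another one. They made up 48.8% of the occupied bins of chromosome 18 and 48.3% of those of chromosome 12, but 20.3% on chromosome 11 and 20% on chromosome 19. Joining adjacent gene-poor bins gave 247 runs, of which 162 were single bins, 85 had at least 2 bins and 11 had at least 5. The longest run, on chromosome 16 from 62 to 82 Mb (mm9), held 10 bins. Set-aside families lay in 141 of the 412 bins, with 611 rows. Of these, 402 were in 10 bins, 321 of the 611 were odorant receptor (Olfr) rows and 139 were microRNA rows. Those 10 bins are gene-poor only once receptor and other family rows have been set aside.

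Genes for neuronal adhesion and guidance lay in gene-poor bins far more often than the 9.25% of all kept autosomal rows. Of 94 rows in 6 such lists, 45 (47.9%) were gene-poor. They included 11 of 19 classical cadherins, calcium-dependent adhesion proteins, such as Cdh6, Cdh8 and Cdh12. They also included 6 of 13 contactins and contactin-associated proteins, some of which join axons and glia. Further rows were 9 of 19 leucine-rich repeat synaptic adhesion proteins, such as Slitrk1 and Lrrtm1, 3 of 9 IgLON and Cadm proteins and 3 of 5 neurexins and neuroligins. Axon guidance genes had 13 of 29 rows there, among them the netrin receptor Dcc and the Slit receptors Robo1 and Robo2. Of developmental transcription factors, 20 of 48 were gene-poor, including Foxp2, Meis2 and Sox11.

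Receptor and channel genes, with 13 of 49 rows in gene-poor bins (26.5%), were in between as a group. The lists differed, and gene-poor bins held 4 of 8 metabotropic glutamate receptors, such as Grm5 and Grm7, 4 of 17 ionotropic ones, such as Gria2 and Gria4, and 5 of 24 voltage-gated potassium channel rows. Proteasome subunits had 2 of 31 rows there, translation initiation factors 3 of 35 and cytosolic tRNA synthetases 1 of 20. Together this was 6.98% of 86, near the 9.25% of all kept autosomal rows. Of markers of granule neurons 5 of 8 were gene-poor, and of glial and vascular markers 2 of 10. Median locus length also differed among the lists, from 900 kb for neurexins and neuroligins to 11.8 kb for proteasome subunits. It was 13.3 kb for leucine-rich repeat adhesion genes. Of all kept loci over 500 kb, 54.3% lay in gene-poor bins. How far the shares of the lists go with locus length was not tested. The list counts are of positions, with no test.

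**Figure D1:**
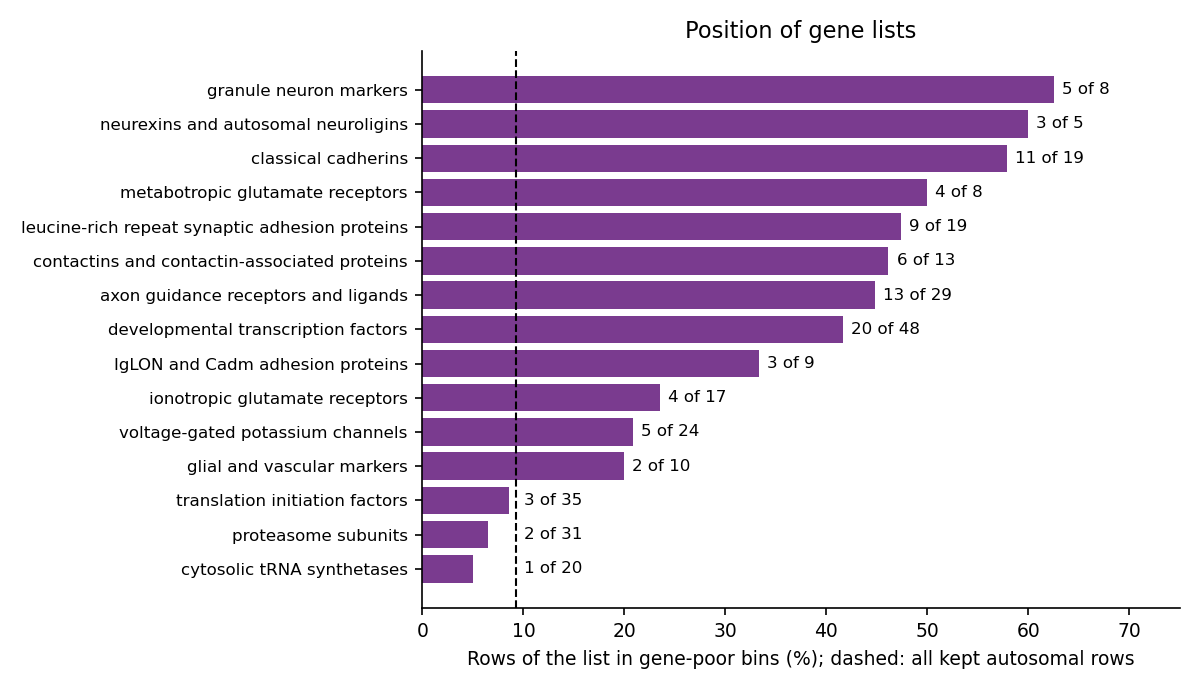
Share of the rows of each gene list that lie in gene-poor bins, in percent, with the count of rows beside each bar; the dashed line is the 9.25% of all kept autosomal rows. Adhesion, guidance, transcription factor, receptor, channel and marker lists stand to the right of the line. The proteasome, initiation factor and tRNA synthetase lists lie near it, slightly to its left.

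Gene-poor rows reached 1 RPKM about as often as other rows, but were slightly lower on average. The share of gene-poor rows at 1 RPKM or more was 55.6%, 54.5% and 54.6% in replicates 1, 2 and 3, and that of the other autosomal rows 55.6%, 54.99% and 54.9%. The difference, gene-poor minus other, was -0.265 percentage points ± 0.246 (SD, n = 3), close to its spread (exact sign-flip permutation test, two-sided, p = 0.5). Rows listed at 0 were 22.03% ± 1.76 in gene-poor bins and 22.6% ± 1.13 elsewhere. The mean of log2(RPKM + 1) was 1.96, 1.96 and 1.97 in gene-poor rows and 2.11, 2.09 and 2.08 in the others. The library means of the classes thus did not overlap, though their single rows did. The difference of -0.13 ± 0.01 (SD, n = 3) had the same sign in 3 of 3 libraries. The exact sign-flip permutation test gave p = 0.25, the smallest that 3 libraries allow. Other rows in bins of 9 to 16 and 17 to 32 rows, at 1.96 and 1.95, were about level with gene-poor rows. Only bins of 33 to 64 and of over 64 rows were higher, at 2.28 and 2.35. With the set-aside families counted as rows, both differences changed sign, to 0.026 in log2(RPKM + 1) and 3.68 percentage points. Gene-poor rows were then at 1.94 and 54.1%, against 1.96 and 54.9% without the families. The other rows went from 2.09 and 55.1% to 1.92 and 50.4%. Under other bin limits and row filters the gene-poor share at 1 RPKM or more was lower by more. The difference was -1.74 percentage points with 1 to 5 rows per bin and -1.51 with bins shifted by 1 Mb. It was -1.18 once rows averaging under 0.1 RPKM were dropped. Bins shifted by 1 Mb gave -0.19 in log2(RPKM + 1). In the 9 rows with 10 gene-poor table neighbours on each side, 33.3% of values were at 1 RPKM or more, -21.8 percentage points from the other rows.

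The gap lay among the higher values, and not only among the rare highest ones. A value of at least 10 RPKM was listed for 24.6% ± 0.57 of gene-poor rows and 28.3% ± 0.099 of the others (SD, n = 3). In percentage points this was a wider gap than that at 100 RPKM or more. Rows at 100 RPKM or more numbered 30, 27 and 32 in gene-poor bins, 1.64% ± 0.14 of the class, against 2.52% ± 0.16 of other rows (SD, n = 3). Among rows at 1 RPKM or more the median was 8.29 RPKM ± 0.28 in gene-poor bins and 10.4 RPKM ± 0.18 in the others. The highest gene-poor value was 1399, 1411 and 1369 RPKM, and differed less between libraries than the highest value elsewhere, at 15096, 19979 and 11005 RPKM. Gene-poor rows, 9.25% of the kept rows, carried 7.43%, 7.41% and 8.06% of their summed RPKM. Per bin, the median sum was 26.7 RPKM ± 1.39 in gene-poor bins and 193 RPKM ± 4.12 in the others, which have a median of 4 and 18 kept rows. No row reached 1 RPKM in any library in 33 of the 412 gene-poor bins, and in 0 of the 769 other bins. Gene-poor bins hold fewer rows by the rule, so more of them can lack such a row at equal levels. Rows under 1 RPKM in every library numbered 460 of 1805 in gene-poor bins and 4773 of 17713 in the others.

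Level did not rise steadily with gene density. Mean log2(RPKM + 1) was 1.89 ± 0.19 in bins of 1 to 2 rows, 1.92 ± 0.09 in those of 3 to 4, 1.99 ± 0.02 in those of 5 to 6 and 1.98 ± 0.02 in those of 7 to 8 (SD, n = 3). Bins of 9 to 16 and 17 to 32 rows were at 1.96 ± 0.00311 and 1.95 ± 0.00979, within the range of the gene-poor classes. Bins of 33 to 64 rows, at 2.28 ± 0.02, and of over 64 rows, at 2.35 ± 0.05, stood above all sparser classes in every library. Against the mean of all kept autosomal rows, 7 of the 8 classes (87.5%) passed in limma at an adjusted p under 0.05, the 2 densest above the mean and 5 below it. The 5 lower ones include 3 of the 4 gene-poor classes, at -0.16, -0.09 and -0.09 with limma adjusted p of 0.0171, 0.00892 and 0.00892. Bins of 1 to 2 rows deviated by -0.19 with an adjusted p of 0.0895, and replicate 2 lay above the mean there while replicates 1 and 3 lay below it. Without replicate 1, 4 classes passed.

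Bins just inside and just outside the limit had similar levels. The mean was 1.98 ± 0.03 and 1.99 ± 0.00757 in bins of 7 and 8 rows, and 1.95 ± 0.06 and 2.03 ± 0.08 in bins of 9 and 10 rows (SD, n = 3).

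**Figure D2:**
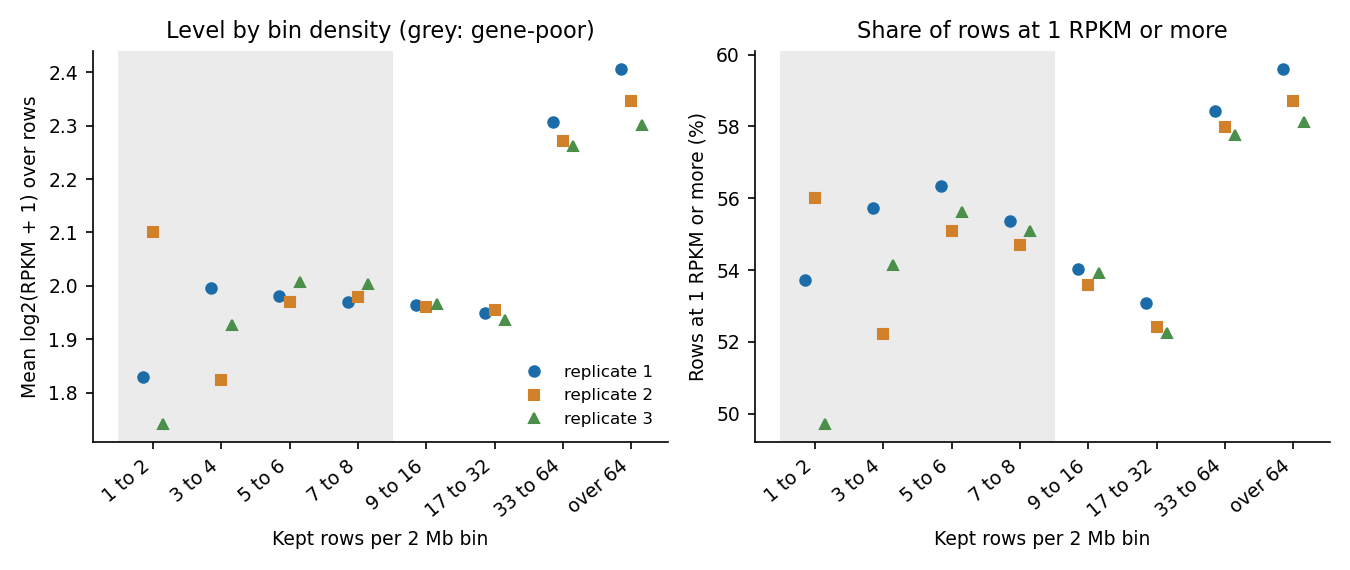
Mean log2(RPKM + 1) over rows (left) and percent of rows at 1 RPKM or more (right) by the number of kept rows in the 2 Mb bin, 1 symbol per library, both axes starting above 0; the grey band marks gene-poor bins. Bins of 33 or more rows stand above the rest in every library, and the libraries differ most in bins of 1 to 2 rows.

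Among gene-poor rows, longer loci had higher levels. Mean log2(RPKM + 1) was 1.67 ± 0.02 for loci under 10 kb, 1.94 ± 0.03 for 10 to 100 kb, 2.14 ± 0.05 for 100 to 500 kb and 2.50 ± 0.05 over 500 kb (SD, n = 3), with 380, 876, 449 and 100 rows. This order held in each of the 3 libraries. The difference between the longest and shortest classes was 0.82, and it was 0.38 once rows averaging under 0.1 RPKM were dropped. The share of rows at 1 RPKM or more followed it, from 44.9% ± 1.06 to 67.7% ± 1.53, and the share listed at 0 fell from 35.3% to 12%. In the other autosomal bins the same classes were at 1.86 ± 0.04, 2.21 ± 0.01, 2.29 ± 0.05 and 2.15 ± 0.07, so that loci over 500 kb were below those of 100 to 500 kb there. Only 84 rows of fuller bins are that long.

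Within length classes, gene-poor rows were lower than other rows in 3 of the 4 classes and higher in the longest, with lengths inside a class not matched. The difference, gene-poor minus other, was -0.19 ± 0.05, -0.27 ± 0.02 and -0.15 ± 0.04 for the 3 shorter classes, and 0.35, 0.47 and 0.23 in replicates 1, 2 and 3 for loci over 500 kb. Weighted to the lengths of gene-poor rows, the difference over all classes was -0.19 ± 0.01 (SD, n = 3), below the -0.13 without weighting. No test was made of these differences. Across the 55 runs of at least 10 rows, Pearson's r of the run mean with the log10 of the median locus length was 0.31, 0.21 and 0.19 in the 3 libraries. It is given as a description, since neighbouring runs can share displaced values. Locus length belongs to the row name, and the value of that row can be that of a neighbour.

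**Figure D3:**
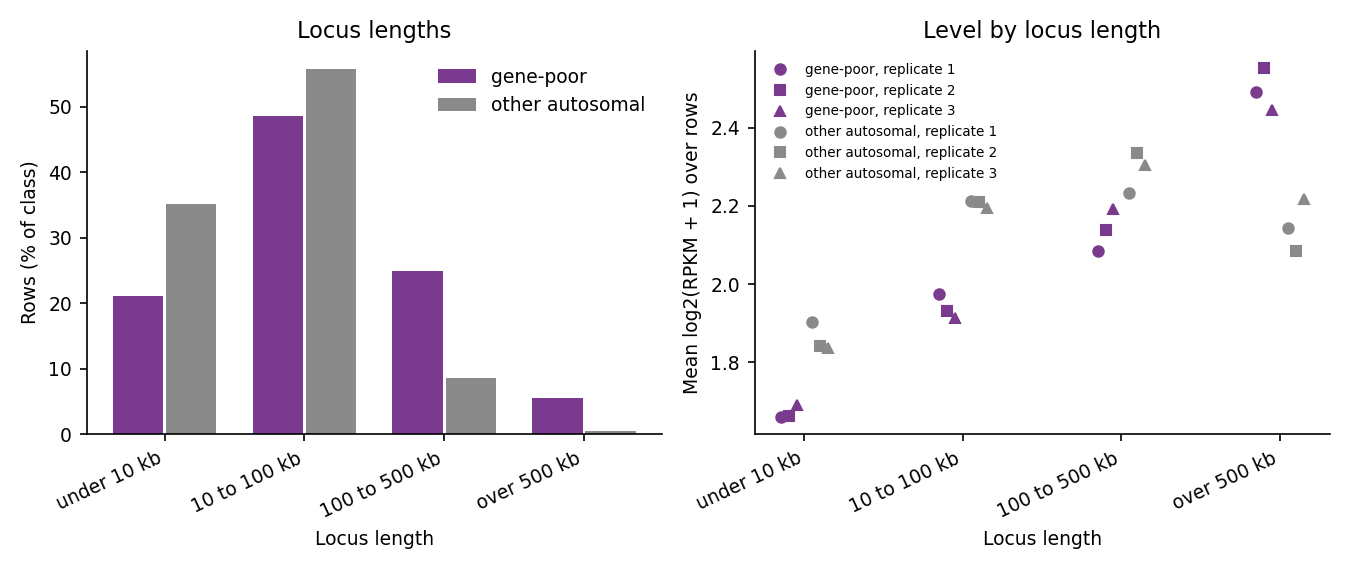
Percent of gene-poor (purple) and other autosomal (grey) rows in each locus length class (left), and their mean log2(RPKM + 1), 1 symbol per library, on an axis starting above 0 (right). Gene-poor rows are shifted to long loci, and their level rises from 1.67 under 10 kb to 2.50 over 500 kb.

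Runs of gene-poor bins differed from each other in level. Of 247 runs, 55 held at least 10 rows, 859 in all, and were tested. Their means ranged from 1.02 to 3.30 in log2(RPKM + 1), with a median SD between libraries of 0.21 (n = 3). Pearson's r over these 55 runs was 0.72 for replicates 1 and 2, 0.77 for 1 and 3, and 0.84 for 2 and 3. Over the single gene-poor rows, which are not independent replicates, it was 0.40, 0.42 and 0.53 in that order. Set against the average kept autosomal row, 16 of the 55 runs were called higher and 18 lower (limma, adjusted p under 0.05), 61.8% in either direction. Over all 268 stretches tested, gene-poor and fuller, 25.4% lay above and 33.6% below, and 59% in either direction. For the 213 stretches of fuller bins alone the shares were 24.4%, 33.8% and 58.2%. The gene-poor shares, 29.1% and 32.7%, are near that background. A call means that an offset repeated between the libraries. Without replicate 1, 2 or 3 the calls numbered 34, 21 and 16.

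Against the 25 nearest kept rows of fuller bins on each side, limma called 10 runs higher and 11 lower at an adjusted p under 0.05, 18.2% and 20% of the 55 tested and 38.2% together. For the 213 stretches of fuller bins, set against the fuller bins around them in the same way, the shares were 26.8%, 23.5% and 50.2%. Those stretches are larger, with a median of 39 rows against 15 in the gene-poor runs. In 16 runs the difference was positive in every library, and in 20 it was negative in every library. Such counts were not taken for the stretches of fuller bins, so they cannot be set against a background. The median difference over runs was -0.10, and by library it was -0.087, -0.15 and 0.042. Without replicate 1, 2 or 3 the calls numbered 29, 11 and 13. The difference between the shares of gene-poor and fuller stretches was not tested.

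**Figure D4:**
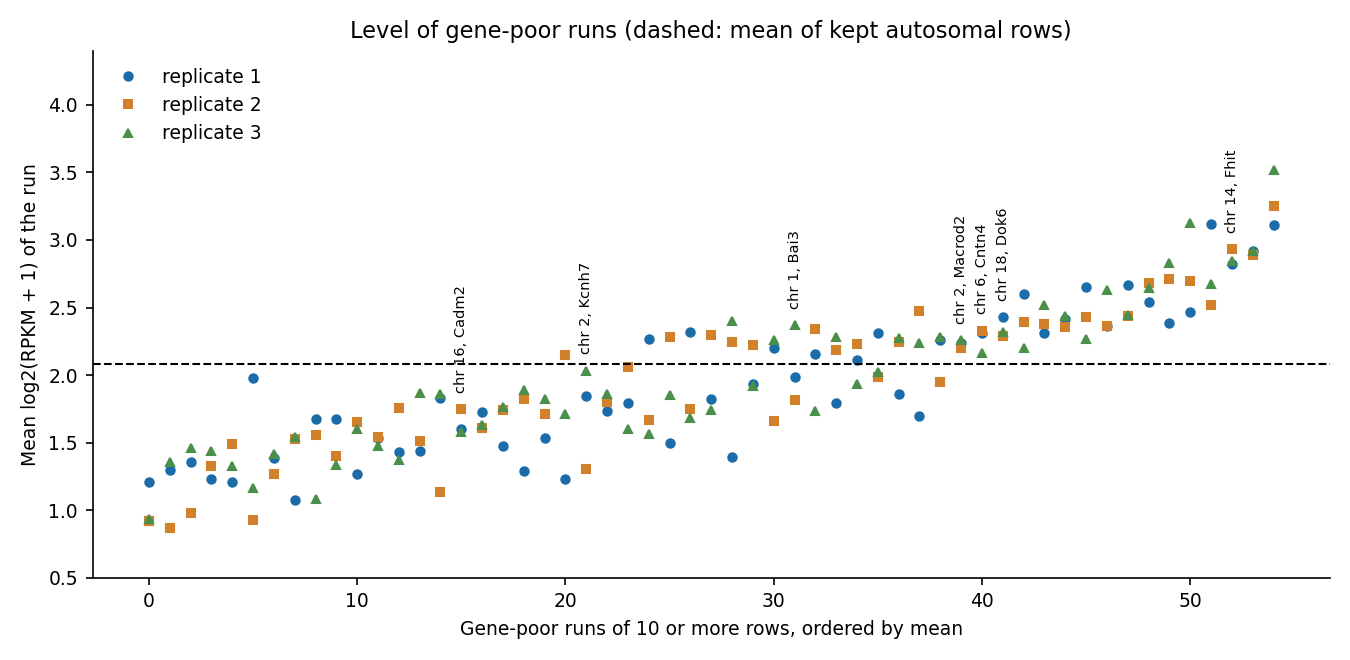
Mean log2(RPKM + 1) of the 55 gene-poor runs of at least 10 rows, ordered by their mean, 1 symbol per library, on an axis starting above 0; the dashed line is the mean of all kept autosomal rows, and the 7 runs described by name are marked by chromosome and longest locus. Run means go from 1.02 to 3.30, and the libraries lie closer together in the Fhit run than in the Kcnh7 run.

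The run around Fhit on chromosome 14, from 10 to 20 Mb, had the highest level of the 8 runs with at least 20 rows. Its longest loci are Fhit (1612 kb), the receptor tyrosine phosphatase Ptprg (688.5 kb), the retinoic acid receptor Rarb (651.5 kb) and the vesicle-priming gene Cadps (450.5 kb). Its 25 rows averaged 2.82, 2.93 and 2.85 in the 3 libraries, an offset of 0.79 with an SE of 0.04 from the autosomal mean (limma, adjusted p = 0.00173). It stood 1.13 above its flanks with an SE of 0.12 (limma, adjusted p = 0.00186). The 3 highest values were 154, 68.9 and 64.3 RPKM in replicate 1, 165, 66.4 and 66.3 in replicate 2, and 159, 61.8 and 60.2 in replicate 3. High values of similar size thus recurred inside the run in each library.

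The longest run, around the adhesion gene Cadm2 (965.5 kb) on chromosome 16, also holds Robo2 (518.6 kb), Robo1 (383 kb) and the neural adhesion gene Ncam2 (423.6 kb). Its 39 rows had the lowest mean of the 8 runs, with 1.60, 1.75 and 1.58. This was -0.44 from the autosomal mean with an SE of 0.05 (limma, adjusted p = 0.00746, and 0.0519 without replicate 3). Its flanks were low as well, and against them the difference was 0.21 with an SE of 0.12 (limma, adjusted p = 0.208). The highest values were 31.6, 33.4 and 32.3 RPKM in the 3 libraries, so that no kept row of the run was above 33.4 RPKM in any of them.

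The run from 98 to 112 Mb on chromosome 6 holds the contactins Cntn4 (1022 kb) and Cntn6 (370.4 kb), the presynaptic glutamate receptor Grm7 (921.6 kb) and the transcription factor Foxp1 (510 kb). Its 29 rows averaged 2.31, 2.33 and 2.16, an offset of 0.19 (limma, adjusted p = 0.0402), and its highest values were 90.2, 85.1 and 89.9 RPKM. This call did not hold with any 1 library left out, and with 5 rows left out at each end the offset was -0.17 (limma, adjusted p = 0.313). Over rows averaging at least 0.1 RPKM it was 0.069 (limma, adjusted p = 0.368). Against its flanks the difference was -0.37 with an SE of 0.12 (limma, adjusted p = 0.0509). That difference passed at -0.73 with 5 rows left out at each end (limma, adjusted p = 0.0382), and when only the 8 largest runs were tested (adjusted p = 0.0366).

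Chromosome 2 had 2 runs with at least 20 rows. The run from 134 to 142 Mb holds Macrod2 (1995 kb), the phospholipase C genes Plcb1 (689.1 kb) and Plcb4 (271.2 kb) and the kinase gene Pak7 (306.9 kb). It averaged 2.24, 2.20 and 2.26, an offset of 0.15 with a limma adjusted p of 0.032 that was not under 0.05 with any library left out. Over rows averaging at least 0.1 RPKM the offset was 0.044 (limma, adjusted p = 0.431), and with 5 rows left out at each end 0.35 (0.251). Its highest values were 126, 135 and 612 RPKM. In replicate 3 the next were 309 and 129 RPKM, so that the highest value of replicates 1 and 2 had its like there in the value of 129 RPKM, below 2 values with no counterpart of that size in the run in the other libraries. The run from 62 to 68 Mb holds the potassium channel gene Kcnh7 (481.3 kb) and Csrnp3 (185.8 kb). It also holds the sodium channel genes Scn1a (170.1 kb) and Scn9a (154.9 kb). Its means of 1.85, 1.30 and 2.03 varied most among the 8 runs, with an SD of 0.38, and it did not pass (limma, adjusted p = 0.174). Replicate 2 was low, with 9.84 and 9.51 RPKM below its highest value of 24.9, against 22.5 and 21.1 in replicate 1 and 51.7 and 23.8 in replicate 3.

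A further 2 runs of this size differed from each other in their spread. The run on chromosome 18 from 82 to 92 Mb holds the adaptor gene Dok6 (468 kb) and Rttn (159.2 kb). It also holds the myelin gene Mbp (110.5 kb) and the kainate receptor partner Neto1 (106.9 kb). It averaged 2.43, 2.29 and 2.32, an offset of 0.27 with an SE of 0.04 (limma, adjusted p = 0.0144). The adjusted p was 0.0501 without replicate 2 and 0.0790 without replicate 3. Over rows averaging at least 0.1 RPKM the offset was 0.036 (limma, adjusted p = 0.591), and with 5 rows left out at each end 0.67 (0.00812). The run on chromosome 1 from 22 to 32 Mb holds the adhesion receptor gene Bai3 (762.2 kb) and the active zone gene Rims1 (534.1 kb). Its next longest loci are Col19a1 (329.8 kb) and Lmbrd1 (137.8 kb). It averaged 1.99, 1.81 and 2.37, at -0.022 from the autosomal mean (limma, adjusted p = 0.909). Its highest values were 41.0, 35.2 and 36.9 RPKM.

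**Figure D5:**
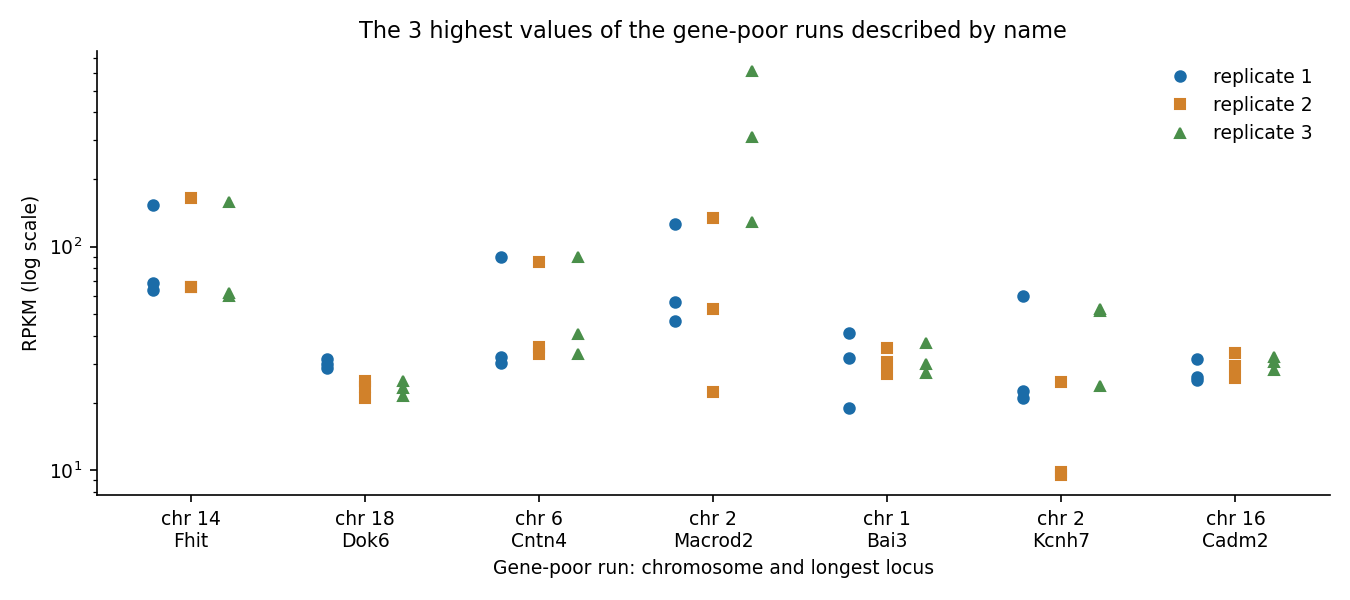
The 3 highest RPKM values of the 7 gene-poor runs described by name, in each library, on a log axis, with runs named by chromosome and longest locus. The Fhit run shows high values of similar size in all 3 libraries, and the Macrod2 run has 2 further high values in replicate 3.

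Shorter runs reached further from the mean, and those given here were chosen after their values were seen. The highest, 12 rows on chromosome 11 from 90 to 94 Mb with the carbonic anhydrase relative Car10 as its longest locus, averaged 3.11, 3.25 and 3.52, and 75% of its rows were at 1 RPKM or more in every library. On chromosome 2 from 52 to 58 Mb, the longest loci are the glycosyltransferase gene Galnt13, Fmnl2 and the channel subunit genes Cacnb4 and Kcnj3. This run averaged 2.92, 2.89 and 2.92. Both runs lay above their flanks, by 1.45 with an SE of 0.16 and 0.74 with an SE of 0.12 (limma, adjusted p = 0.00186 and 0.00609). The lowest, 10 rows on chromosome 5 from 54 to 64 Mb around Arap2, averaged 1.21, 0.92 and 0.94 and differed from its flanks by -1.30 with an SE of 0.15 (limma, adjusted p = 0.00189).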

How the data were processed

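RNA-seq of the dentate gyrus of 3 mice gave 1 deposited table. Its RPKM values were made by the authors with TopHat2 and Cufflinks on mm9, per the submitters' processing notes. The notes name no tool version or annotation. A further 9 value columns match no listed sample and were not used. Rows whose symbols begin with Olfr, Vmn, Zfp, Mir, Snor, Hist, Hox, Krt, Lce, Sprr, Cyp, Pcdh, Rpl, Rps, Nduf, Cox, Atp5 or Uqcr were set aside (3602 of 23120 autosomal rows). Levels are means of log2(RPKM + 1). Offsets of runs, flanks and density classes were tested with an intercept-only fit in limma 3.58.1 (R 4.3.3), two-sided. Benjamini-Hochberg adjustment was used, with a threshold of 0.05. The fit was also tried on simulated offsets of independent stretches. These leave out values displaced between rows, so they do not check the calls under such displacement. Against the mean, gene-poor runs were fitted together with the fuller stretches; against flanks, each kind was fitted separately. Runs with at least 20 rows were named, with the symbols at their longest loci; 1 of the 8 is not reported here. Run spans are bin edges. Alternatives covered libraries left out, bin limits, offset and families, pseudocount, scaling, a filter and run edges. Bins, lists and runs were chosen with earlier results of these data known. Values in RPKM carry no depth, so no counting interval is given.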

Additional observations from a re-analysis of the deposited data

How the results depend on the processing

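No paired analysis was possible because the 3 libraries analysed share 1 label; each difference was already taken inside a library. Gene-poor rows stayed lower than other rows in all settings tried but 1: with families kept as rows the differences were 0.026 in log2(RPKM + 1) and 3.68 percentage points. There gene-poor rows were at 1.94 and 54.1%, and the other rows at 1.92 and 50.4%. The 9 rows with 10 gene-poor table neighbours on each side gave -0.58 and -21.8 percentage points. With a library left out the differences were -0.14 to -0.12 and -0.40 to -0.16 percentage points. In every list of counts here the order is all calls against the autosomal mean, above it, below it, then all calls against flanks, above and below, where the reported counts are 34, 16, 18, 21, 10 and 11. With a library left out the ranges were 16 to 34, 4 to 13, 12 to 21, 11 to 29, 5 to 13 and 6 to 16. With 1 to 5 rows per bin, which leaves 10 runs, they were 6, 2, 4, 3, 1 and 2. With 1 to 12 rows, which makes 151 runs, they were 70, 24, 46, 56, 30 and 26. With rows at a mean of 0.1 RPKM or more (42 runs) they were 18, 5, 13, 11, 6 and 5. With 5 rows left out at each end (48 runs) they were 18, 7, 11, 11, 4 and 7. With at least 20 rows (8 runs) they were 5, 4, 1, 2, 1 and 1. Without bins that hold set-aside rows, an alternative chosen after seeing the data (25 runs), they were 11, 5, 6, 11, 5 and 6. With 50 flanking rows on each side, 17 runs were below their flanks. Density classes called numbered 4 to 8 with a library left out. The difference between gene-poor loci over 500 kb and under 10 kb was 0.82, and 0.79 to 0.86 with a library left out, 0.95 with 1 to 5 rows per bin, 0.38 with the filter, 1.57 with a pseudocount of 0.1 and 0.71 without bins that hold set-aside rows. Apart from the numbers of runs given, the cause was not tested.

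Among the 7 runs described by name, values that missed the threshold changed sign as follows. The Bai3 run on chromosome 1 ranged from -0.18 to 0.10 with a library left out, at 0.019 without replicate 1, and went to 0.31 with the filter and 0.31 with 5 rows left out at each end. Against flanks it ranged from -0.14 to 0.23 with a library left out and went to -0.12 with 50 flanking rows. The Kcnh7 run on chromosome 2 went to 0.12 with 5 rows left out at each end, and against flanks ranged from -0.36 to 0.17 with a library left out and went to 0.051 with a pseudocount of 0.1 and 0.33 with 5 rows left out. The Dok6 run on chromosome 18 ranged from -0.033 to 0.14 against flanks with a library left out. The called offset of the Cntn4 run on chromosome 6 became -0.17 with 5 rows left out at each end. With a pseudocount of 0.1 called offsets grew to 1.34 for the Fhit run (1.99 against flanks), 0.55 for the Cntn4 run and 0.71 for the Dok6 run, and with the filter that of the Cadm2 run was -0.27. The Fhit run passed in each of the settings tried for it, against the autosomal mean and against flanks. With RPKM alone, no limit set by depth can be given.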
